A study of Mus musculus with 41 samples.

Results

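Mouse microglia, the resident macrophages of the brain, had 38852 peaks of open chromatin after 7 d of culture at sites that were in neither the open chromatin list nor the PU.1 list of freshly sorted cells. These sites, called 7 d-only peaks here, were chosen by a rule on the deposited peak lists: an ATAC peak called after 7 d of culture that shares not 1 bp with any ATAC peak or any PU.1 peak called ex vivo. They made up 34.4% of the 112977 ATAC peaks called at 7 d. Of the remaining 7 d peaks, 68007 overlapped an ex vivo ATAC peak (shared peaks), and 6118 overlapped an ex vivo PU.1 peak but no ex vivo ATAC peak (7 d-only peaks at PU.1 sites). The ex vivo list held 90674 ATAC peaks, of which 14572 met neither a 7 d ATAC peak nor a PU.1 peak.

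The microglia were live CD11b+ CD45Low single cells sorted from perfused whole brains of C57Bl6 mice; the labels used here give no age or sex. The 7 d cultures were grown in DMEM/F12 with serum and a daily dose of IL-34, a cytokine that signals through CSF1R, without a change of medium, and the ex vivo cells were taken directly after sorting. ATAC, which maps open chromatin by the insertions of a transposase, and the histone mark H3K27ac were profiled at both times, and PU.1 and H3K4me2 ex vivo, in 2 libraries a group that the authors pooled before calling peaks; the label of 1 of the 7 d ATAC libraries gives 8 d. Poly(A) RNA was sequenced from 5 libraries at 7 d, 2 at 7 d with IL-34 and TGFβ, 3 at 24 h (1 of them labelled 22 h), 2 at 6 h and 5 ex vivo. Where nothing says that libraries came from separate animals or cultures, their spread may be technical, and p-values measure only that spread. The 7 d RNA libraries 2 and 3 resembled each other (Pearson's r of 0.993 across genes) more than they resembled the other 3 (0.958 to 0.979), and counts without both are given with the processing alternatives. PU.1 was not profiled at 7 d in these data, so whether it sits at the 7 d-only peaks after culture was not measured.

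PU.1 is the lineage-determining factor of macrophages, and most of their enhancers are opened by PU.1 together with partners such as C/EBP, AP-1, RUNX and interferon-regulatory factors. H3K4me2 marks promoters and enhancers that are active or primed, and H3K27ac marks those that are active. Microglia depend on signals from the brain, TGFβ among them, to keep their own enhancers in use, and microglia removed from the brain are known to lose much of that programme.

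Sequences were at hand for the 7 d-only peaks at gene starts, and those that go with the RNA results below are shown first. RefSeq promoter windows (GRCm38.p6, 250 bases before to 50 after a start) numbered 32851, and 746 of them had at least 100 bases under a 7 d-only peak. In 68 of the 746 the window overlapped an H3K27ac region at 7 d and none ex vivo. The stretches printed are the bases of such peaks that lie before the start, 5′ to 3′ on the strand of the gene. They belong to genes named by the rules given with the processing, and were picked among those after their values were seen. Capitals mark TGANTCA, the core bound by AP-1 dimers of FOS and JUN proteins, and GAAANNGAAA, the interferon-stimulated response element bound by IRF and STAT factors.

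Mmp12 codes for a macrophage elastase, and the stretch at an inner start of the gene (chr9:7347208-7347373, plus strand) holds 1 AP-1 core:
Mmp12: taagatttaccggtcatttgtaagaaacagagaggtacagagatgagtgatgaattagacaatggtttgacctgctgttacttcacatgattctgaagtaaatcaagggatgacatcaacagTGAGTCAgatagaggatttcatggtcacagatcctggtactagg
Emp1 codes for an epithelial membrane protein, and its stretch, at an inner start too (chr6:135362690-135362890, plus strand), also holds 1:
Emp1: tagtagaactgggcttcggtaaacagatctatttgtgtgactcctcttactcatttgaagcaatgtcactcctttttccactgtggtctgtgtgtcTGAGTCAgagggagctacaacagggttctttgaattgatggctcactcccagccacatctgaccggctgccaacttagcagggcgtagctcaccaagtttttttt
Ifitm3 codes for an antiviral membrane protein induced by interferon, and its stretch (chr7:141010745-141010880, minus strand) holds an AP-1 core, while its whole promoter window also holds 2 response elements:
Ifitm3: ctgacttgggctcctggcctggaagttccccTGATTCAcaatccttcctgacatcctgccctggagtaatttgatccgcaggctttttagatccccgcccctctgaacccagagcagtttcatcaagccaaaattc
Hdac9 codes for a class II histone deacetylase, and the stretch at an inner start of the gene (chr12:34528890-34529058, minus strand) holds an AP-1 core:
Hdac9: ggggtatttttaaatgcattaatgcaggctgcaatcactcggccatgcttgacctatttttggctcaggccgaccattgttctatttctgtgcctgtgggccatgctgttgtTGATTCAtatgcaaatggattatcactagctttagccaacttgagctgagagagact
Oas1a codes for a sensor of double-stranded RNA induced by interferon, and its stretch (chr5:120907526-120907629, minus strand) holds 2 overlapping response elements:
Oas1a: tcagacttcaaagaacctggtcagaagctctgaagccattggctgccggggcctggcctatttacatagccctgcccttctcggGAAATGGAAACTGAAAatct
Clec4d codes for a C-type lectin receptor of macrophages, and its stretch (chr6:123262033-123262106, plus strand) holds neither motif, though its whole promoter window holds 1 response element:
Clec4d: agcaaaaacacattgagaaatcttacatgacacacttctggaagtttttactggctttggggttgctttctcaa

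On both strands, TGANTCA was present in 22 of the 68 promoter windows with a 7 d-only peak and H3K27ac at 7 d only (32.4%). Among the 746 windows with a 7 d-only peak of any state it was present in 13.4%, among 9863 windows at shared peaks in 4.58%, and among all windows in 7.81%. Windows at shared peaks with H3K27ac at 7 d only, of which there were 289, held it in 11.1%. The response element GAAANNGAAA was in 11.8% of the 68 windows, against 3.44% of all windows. C/EBP site letters (TTGCNNAA) were in 16.2% of the 68, against 10.8% of all. RUNX letters (TGTGGTT) stood at 8.82%, against 5.27% of all, and the PU.1 and ETS letters AGGAAGT at 14.7%, against 9.35%. In the 161 windows at 7 d-only peaks with ex vivo PU.1, AGGAAGT reached 21.7% and TGANTCA 5.59%. The E-box CACGTG, which MITF and TFE factors bind, was in 1 of the 68 windows (1.47%), against 7.15% of all. The 68 windows were also poorer in G and C, with a median of 49.5%, against 61.7% at shared peaks and 52.7% over all windows, and the part of base composition in these shares was not tested. A match of these letters is a description of the window and not a measured binding site.

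RNA of most genes at these 68 windows was higher at 7 d. Differences in RNA were tested with edgeR's quasi-likelihood test on the deposited counts, and a gene is called where its Benjamini-Hochberg adjusted p over all 13840 genes tested is under 0.05. The 68 windows belonged to 65 genes, of which 26 were not tested, having too few counts or no row in the table. Of the other 39, 34 were higher at 7 d and 2 lower, with a median log2 fold change of 3.50 (7 d over ex vivo). Over all genes tested, 34.8% were higher at 7 d and 35.7% lower, with a median of -0.02. Where H3K27ac was present at both times, 72 of 207 tested genes with a 7 d-only peak at the promoter were higher and 83 lower, with a median of -0.05, and where it was absent at 7 d, 49 of 148 were higher and 57 lower, with a median of -0.36. Of the 39 genes, 16 averaged under 1 CPM ex vivo and could pass the filter on low counts mainly through the cultured libraries. Among the other 23, 19 were higher and 2 lower, with a median of 2.38, beside 35.4% higher and 37.6% lower of all genes at that ex vivo level. At the same level, 13 of 76 genes without H3K27ac at 7 d were higher and 45 lower (59.2%), with a median of -0.94. With H3K27ac at both times, 68 of 198 were higher and 82 lower there, with a median of -0.08. Shared peaks at 7 d-only acetylated promoters had 148 of 217 tested genes higher and 24 lower, with a median of 1.92.

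**Figure D1:**
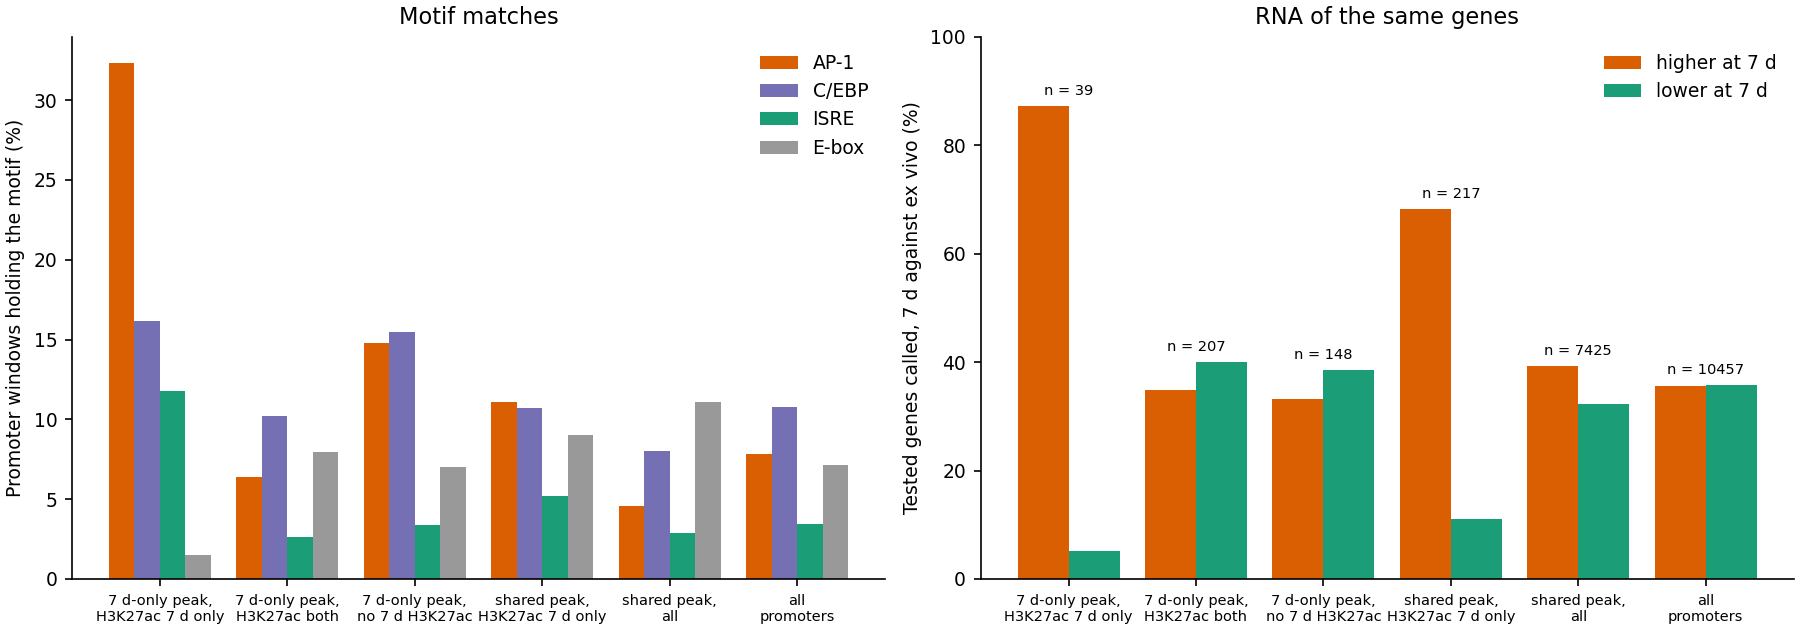
Left: share of promoter windows (%) that hold a motif on either strand, by the ATAC peak over the window and its H3K27ac. Right: share of the tested genes of those windows (%) that were called higher or lower at 7 d against ex vivo, with n tested genes. Windows under a 7 d-only peak with H3K27ac at 7 d only stand out in both panels, with an AP-1 core in 32.4% and 87.2% of 39 genes higher.

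Mmp12 RNA stood at 1944, 2730, 2226, 1191 and 2279 CPM (counts scaled to library size, by TMM) in the 7 d libraries, against 2.51, 0.875, 2.70, 0.0717 and 1.17 CPM ex vivo. No 7 d library came near the ex vivo range, and the log2 fold change was 10.38 ± 0.56 (SE; edgeR adjusted p = 1.89e-10). Emp1 had 198, 313, 280, 176 and 166 CPM at 7 d, against 0.0464, 0.375, 0.605, 0 and 0.0556 CPM ex vivo, a log2 fold change of 9.85 ± 0.45 (edgeR adjusted p = 3.56e-11). Clec4d had 545, 192, 214, 548 and 626 CPM at 7 d, against 0.186, 0.438, 0.928, 0 and 0 CPM ex vivo. Its 7 d libraries 2 and 3 had the lowest values at that time. Oas1a had 41.9, 51.7, 55.7, 50.8 and 18.01 CPM at 7 d, against 1.86, 3.00, 2.74, 3.08 and 1.78 CPM ex vivo (log2 fold change 4.14 ± 0.56, edgeR adjusted p = 9.23e-06). Ifitm3 had 152, 161, 148, 273 and 32.3 CPM at 7 d, against 2.27, 3.06, 5.73, 0.931 and 2.28 CPM ex vivo (log2 fold change 5.70 ± 0.82, edgeR adjusted p = 1.92e-05). For both interferon-induced genes 7 d library 5 was the lowest and still above the ex vivo range. Hdac9 had 48.7, 126, 120, 70.9 and 67.1 CPM at 7 d, against 28.3, 44.5, 29.9, 28.7 and 28.0 CPM ex vivo. Its groups did not overlap, though the lowest 7 d value was close to the highest ex vivo one, and the log2 fold change was 1.44 ± 0.24 (edgeR adjusted p = 5.63e-05). Hdac9 also had 41 7 d-only peaks in or near its body, 2 of them with H3K27ac at 7 d only.

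Other genes with such promoters, picked after their values were seen, included immune receptors and a protease inhibitor. Lilr4b, an inhibitory receptor of the leukocyte immunoglobulin-like family, averaged 423 ± 38.3 CPM at 7 d and 2.58 ± 0.72 CPM ex vivo (SD, n = 5 each). Slamf7, a receptor of activated leukocytes with an AP-1 core in its window, averaged 84.4 ± 18.2 CPM at 7 d and 1.37 ± 0.624 CPM ex vivo. Tlr8, an endosomal sensor of RNA, averaged 50.5 ± 14.1 CPM at 7 d and 1.30 ± 1.35 CPM ex vivo. Serpinb8, a protease inhibitor with 2 AP-1 cores, averaged 14.8 ± 1.89 CPM at 7 d and 0.371 ± 0.403 CPM ex vivo. The pair that fell was Gcnt2, an enzyme that branches glycans, at 9.88 ± 4.73 CPM at 7 d and 31.6 ± 10.3 CPM ex vivo, and Afmid, a formamidase, at 5.05 ± 0.777 CPM at 7 d and 11.1 ± 1.52 CPM ex vivo. Tyms, Tnip1 and Nyap1 were not called, with log2 fold changes of 0.51, 0.13 and -0.04.

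Away from promoters, the 7 d-only peaks were mostly distal, late in the list and unmarked. Of those on chromosomes with annotated starts, 6.48% lay within 1 kb of a start, against 10.1% of 7 d-only peaks at PU.1 sites, 14.7% of ex vivo-only peaks without PU.1 and 21.0% of shared peaks. The median distance to the nearest start was 28.6 kb, against 15.0 kb for shared peaks. Gene bodies held 53.2% of the 7 d-only peaks, and 11.8% had no gene within 100 kb. Their median distance to the nearest ex vivo ATAC peak was 6.85 kb and to the nearest ex vivo PU.1 peak 8.63 kb, and 11.8% of them lay within 500 bp of an ex vivo ATAC peak. From chromosome to chromosome the share of 7 d peaks that were 7 d-only ranged over 29.7% to 37.6% (median 34.3%, 20 chromosomes).

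Histone marks were not used to choose the peaks. H3K27ac at 7 d overlapped 6529 of the 7 d-only peaks (16.8%), H3K27ac ex vivo 10.96% and H3K4me2 ex vivo 16.2%. None of these marks was found at 28614 of them (73.6%). At shared peaks the shares were 39.0% for H3K27ac at 7 d, 44.8% for H3K27ac ex vivo and 53.6% for H3K4me2, and 34.3% had no mark. At 7 d-only peaks on PU.1 sites they were 29.3%, 31.2% and 36.02% in the same order, and 50.4% had none. Each list is 1 pooled set without replicates, so these shares carry no test.

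Acetylation divided the 7 d-only peaks into sets that are followed below. In 3459 peaks (8.90%) H3K27ac was present at 7 d and absent ex vivo, and these are called acetylated at 7 d only. Another 3070 (7.90%) were acetylated at both times, 1188 (3.06%) ex vivo only and 31135 (80.1%) at neither time. H3K4me2, profiled ex vivo, overlapped 17.2% of the peaks acetylated at 7 d only, 78.5% of those acetylated at both times, 64.0% of those acetylated ex vivo only and 8.10% of those acetylated at neither. Of the H3K27ac regions at 7 d, 13319 met no H3K27ac region ex vivo, and 2538 of them (19.1%) held a 7 d-only ATAC peak, which was the only kind of ATAC peak in 1850. Of the 18030 H3K27ac regions that were also present ex vivo, 17.5% held one, a like share. Per Mb, the regions without ex vivo H3K27ac held 244 7 d-only peaks and those also present ex vivo 92.2. The latter were wider (median 1645 bp, against 501 bp), and 86.4% of them held a shared ATAC peak, against 24.5%. The part of width and of shared peaks in the densities was not tested.

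The place of a peak in the 7 d list was related to these marks. The files hold no score, but the peak numbers that HOMER gives follow the order of the file on each chromosome (Spearman's rho of 0.997 to 0.998 across peaks of a chromosome, as a description), and HOMER writes peaks from the highest score down. Of the first 10% of the list 7.10% were 7 d-only peaks, and of the last 10% 66.2%. Median places were 70.7% of the way down the list for 7 d-only peaks, 65.6% for those at PU.1 sites and 36.3% for shared peaks. In the first 10%, 58.4% of 802 7 d-only peaks overlapped H3K27ac at 7 d and 17.8% H3K27ac ex vivo, while shared peaks there stood at 69.9% and 69.2%. In the last 10%, 4.79% of 7475 7 d-only peaks overlapped H3K27ac at 7 d, against 8.66% of shared peaks. H3K27ac at 7 d only was found at 41.8% of the 7 d-only peaks in the first 10% and at 2.37% in the last 10%. The order of the list and membership come from the same 7 d ATAC data, so the shares of 7 d-only peaks along the list are a description.

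**Figure D2:**
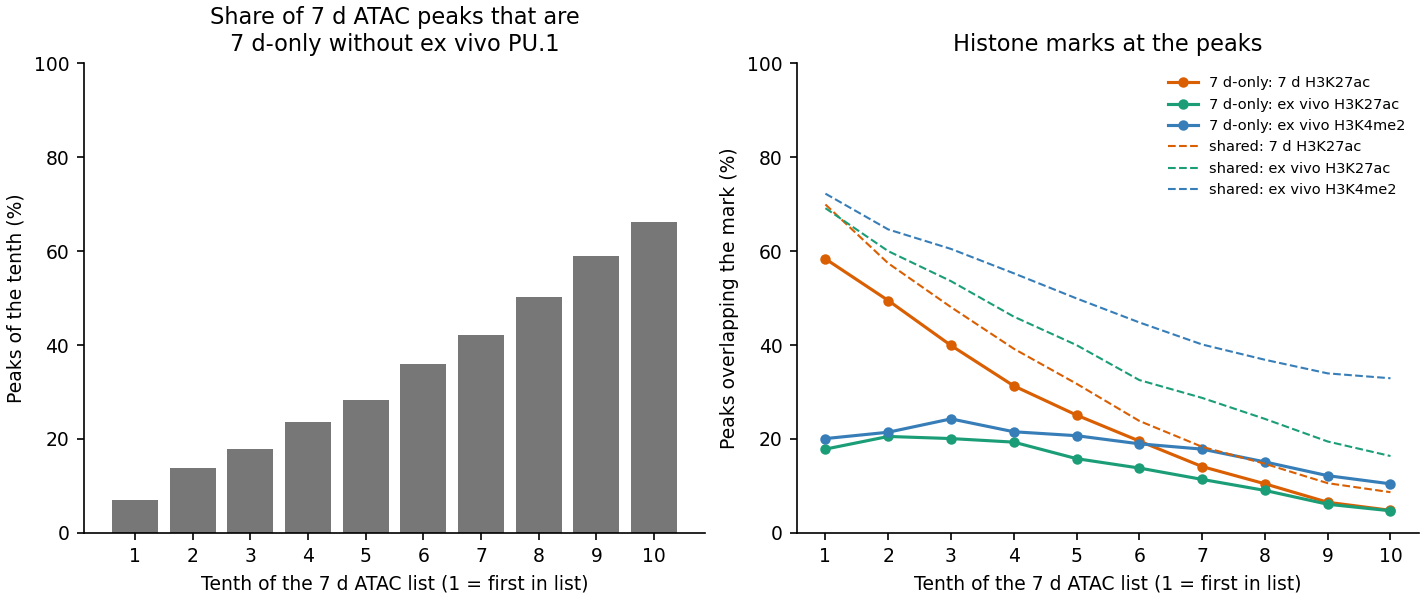
Left: share (%) of each successive 10% of the 7 d ATAC list that are 7 d-only peaks without ex vivo PU.1, from 7.10% in the first to 66.2% in the last. Right: share (%) of 7 d-only peaks (points and solid lines) and shared peaks (dashed) in each step that overlap H3K27ac at 7 d, H3K27ac ex vivo or H3K4me2 ex vivo. The 7 d H3K27ac line of the 7 d-only peaks starts near that of shared peaks, while both ex vivo lines stay low throughout.

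The ex vivo ATAC set was the deeper one. Per the file headers, the pooled 7 d ATAC set held 15.2 M tags with a threshold of 11 tags a peak, and the ex vivo set 23.8 M tags with a threshold of 13. The H3K27ac sets held 27.6 M tags at 7 d and 45.6 M ex vivo. Scaled to 10 M tags, an ATAC peak needed 7.23 tags at 7 d and 5.46 ex vivo. Tags in peaks made up 37.1% at 7 d and 25.9% ex vivo. The headers also give a required enrichment of 4-fold over the surrounding 10 kb. Just inside the rule, 763 7 d-only peaks lay under 50 bp from an ex vivo ATAC or PU.1 peak, and 44.2% of them overlapped H3K27ac at 7 d. Just outside it, 736 peaks were kept out by an overlap of 1 to 50 bp, and 49.0% of those did.

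To relate the peaks to RNA, each was given to the nearest RefSeq gene body within 100 kb. That placed 34277 of them (88.2%), 24833 at a gene whose RNA was tested. Of 13786 tested genes with a position, 7715 (56.0%) had at least 1 7 d-only peak. Among those 7715, 2895 (37.5%) were higher at 7 d and 2662 (34.5%) lower, beside 34.8% and 35.7% of all genes tested, so that having such a peak at all was close to the background. Among genes with 10 or more of them, 39.7% were higher and 38.0% lower, and such genes were long (median span 222 kb, against 11.5 kb for genes with none).

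The shares differed with acetylation. Of 1787 genes with a 7 d-only peak acetylated at 7 d only, 934 (52.3%) were higher at 7 d and 433 (24.2%) lower, with a median log2 fold change of 0.49. With 1 such peak 48.8% of 1186 genes were higher, with 2 peaks 56.8% of 382, and with 3 or more 63.0% of 219, where 17.8% were lower and the median was 0.98. Genes whose 7 d-only peaks included none of this kind were higher in 33.1% and lower in 37.6% of 5928. At the other end, 719 genes had a 7 d-only peak acetylated ex vivo only and none acetylated at 7 d only, and 140 of them (19.5%) were higher and 413 (57.4%) lower, with a median of -0.71. Where no 7 d-only peak was acetylated, 34.0% of 3751 genes were higher and 33.9% lower.

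Gene length and level moved with these sets. The median span was 50.4 kb and the median level 43.6 CPM for genes with a 7 d-only peak acetylated at 7 d only, against 21.0 kb and 19.8 CPM for all genes with a position. Split at the median span, 57.3% of 447 shorter genes with such a peak were higher and 19.5% lower, and 50.6% of 1340 longer ones were higher and 25.8% lower. Shared peaks that were acetylated at 7 d only had a like relation, with 46.0% of 1146 genes higher where they occurred without a 7 d-only peak of that kind. Genes with the 7 d-only kind but not the shared kind were higher in 46.2% of 949, and genes with both kinds in 59.2% of 838. The difference between these sets was not tested. In turn, 7 d-only peaks at PU.1 sites had 33.9% of 3347 genes higher and 39.1% lower.

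**Figure D3:**
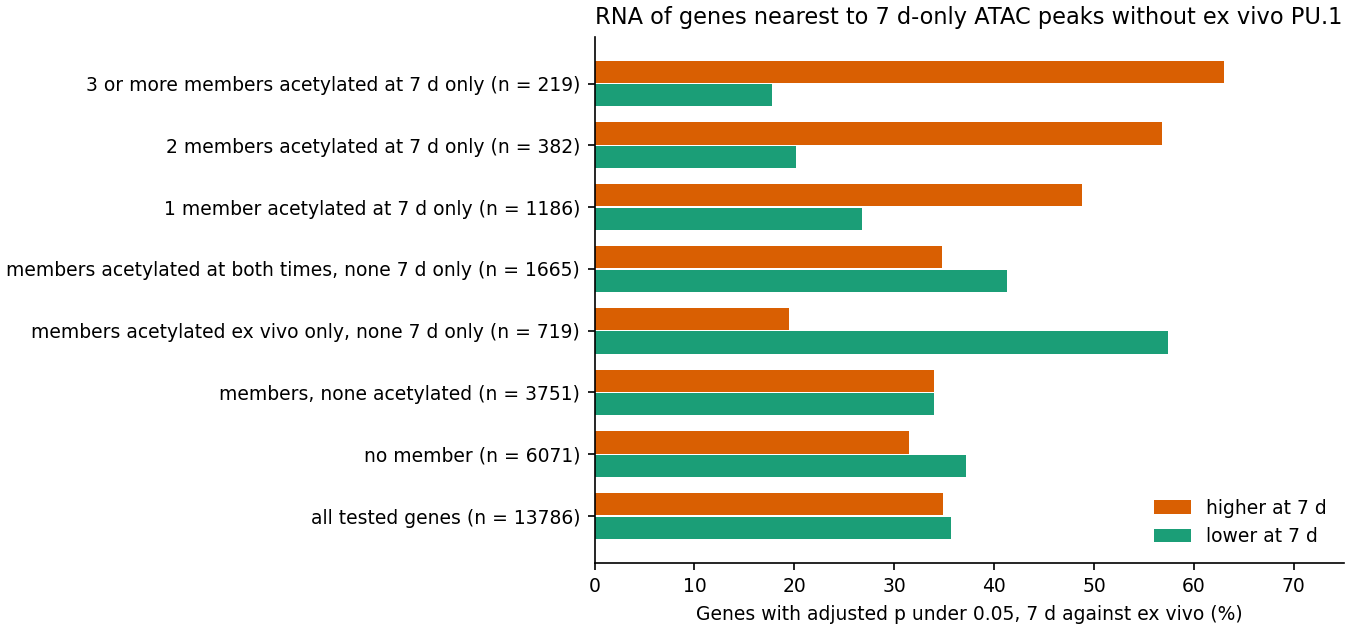
Share of tested genes (%) called higher or lower at 7 d against ex vivo by edgeR (adjusted p under 0.05), grouped by the 7 d-only peaks nearest to them and the H3K27ac of those peaks; members means 7 d-only peaks and n is the number of genes. The share higher reaches 63.0% with 3 or more peaks acetylated at 7 d only, and the share lower reaches 57.4% where peaks were acetylated ex vivo only.

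The genes with the most peaks acetylated at 7 d only were picked after their values were seen, and their RNA differed widely in size of change. Fat3, an atypical cadherin, had 13 such peaks among 44, Igf1 12 among 26, Lpp, a focal adhesion protein, 11 among 26, and Myof, a membrane repair protein of the ferlin family, 8 among 15. Igf1 codes for insulin-like growth factor 1, a trophic factor that macrophages secrete in repair. It had 1490, 1151, 1369, 962 and 1900 CPM at 7 d, against 3.57, 2.50, 5.49, 1.00 and 0.778 CPM ex vivo (log2 fold change 8.96 ± 0.48, edgeR adjusted p = 2e-10). Every 7 d library was far above the ex vivo range.

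Around Igf1 (chromosome 10, bases 87858265 to 87937047 of mm10) the 12 acetylated peaks reached from 81.3 kb before the gene body to inside it. Only 2 of the 12 overlapped ex vivo H3K4me2, and both lay at the 5′ end of the gene body. Highest in the list were chr10:87805926-87806126, 52.1 kb before the body and 6.17% of the way down the list, and chr10:87832173-87832373, 25.9 kb before it and at 7.91%. The gene had 6 shared peaks and 26 7 d-only ones. Lpp averaged 127 ± 21.8 CPM at 7 d and 78.8 ± 21.2 CPM ex vivo (log2 fold change 0.69 ± 0.18), and Sgms1, a sphingomyelin synthase with 7 such peaks, 75.2 ± 20.0 CPM at 7 d and 28.7 ± 4.67 CPM ex vivo. At Myof every library at 7 d had 239 to 324 CPM, against 0.0556 to 1.61 CPM ex vivo (log2 fold change 8.65 ± 0.46, edgeR adjusted p = 2.14e-10).

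Fat3 differed from these. Its RNA stood at 173, 300, 280, 150 and 165 CPM at 7 d, against 155, 147, 107, 169 and 179 CPM ex vivo, with overlapping groups (log2 fold change 0.50 ± 0.24, edgeR adjusted p = 0.0726). It was called without 7 d library 4 or without 7 d library 5 (log2 fold changes 0.60 and 0.58). Fat3 was already expressed ex vivo and had 51 shared peaks, and Lpp, also expressed ex vivo, had 35. The part of ex vivo level and of shared peaks in the difference was not tested. Runx1, a factor of blood and macrophage development, had 7 peaks acetylated at 7 d only among 12 and a log2 fold change of 0.15 ± 0.17 (edgeR adjusted p = 0.421). Dock10, an activator of small GTPases, and Lyst, a regulator of lysosome size, had 8 and 7 such peaks and were not called either (log2 fold changes -0.38 ± 0.22 and 0.21 ± 0.20). Without the 7 d libraries 2 and 3, Runx1 and Lyst were called higher (log2 fold changes 0.41 and 0.46), and without 7 d library 1 Dock10 was called lower (-0.52). By contrast Ell2, an elongation factor of RNA polymerase II, averaged 528 ± 139 CPM at 7 d and 11.8 ± 3.33 CPM ex vivo, with 7 such peaks. Cd93, a receptor in the clearance of dying cells, had 7 and averaged 47.9 ± 17.7 CPM at 7 d and 1.63 ± 1.41 CPM ex vivo.

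**Figure D4:**
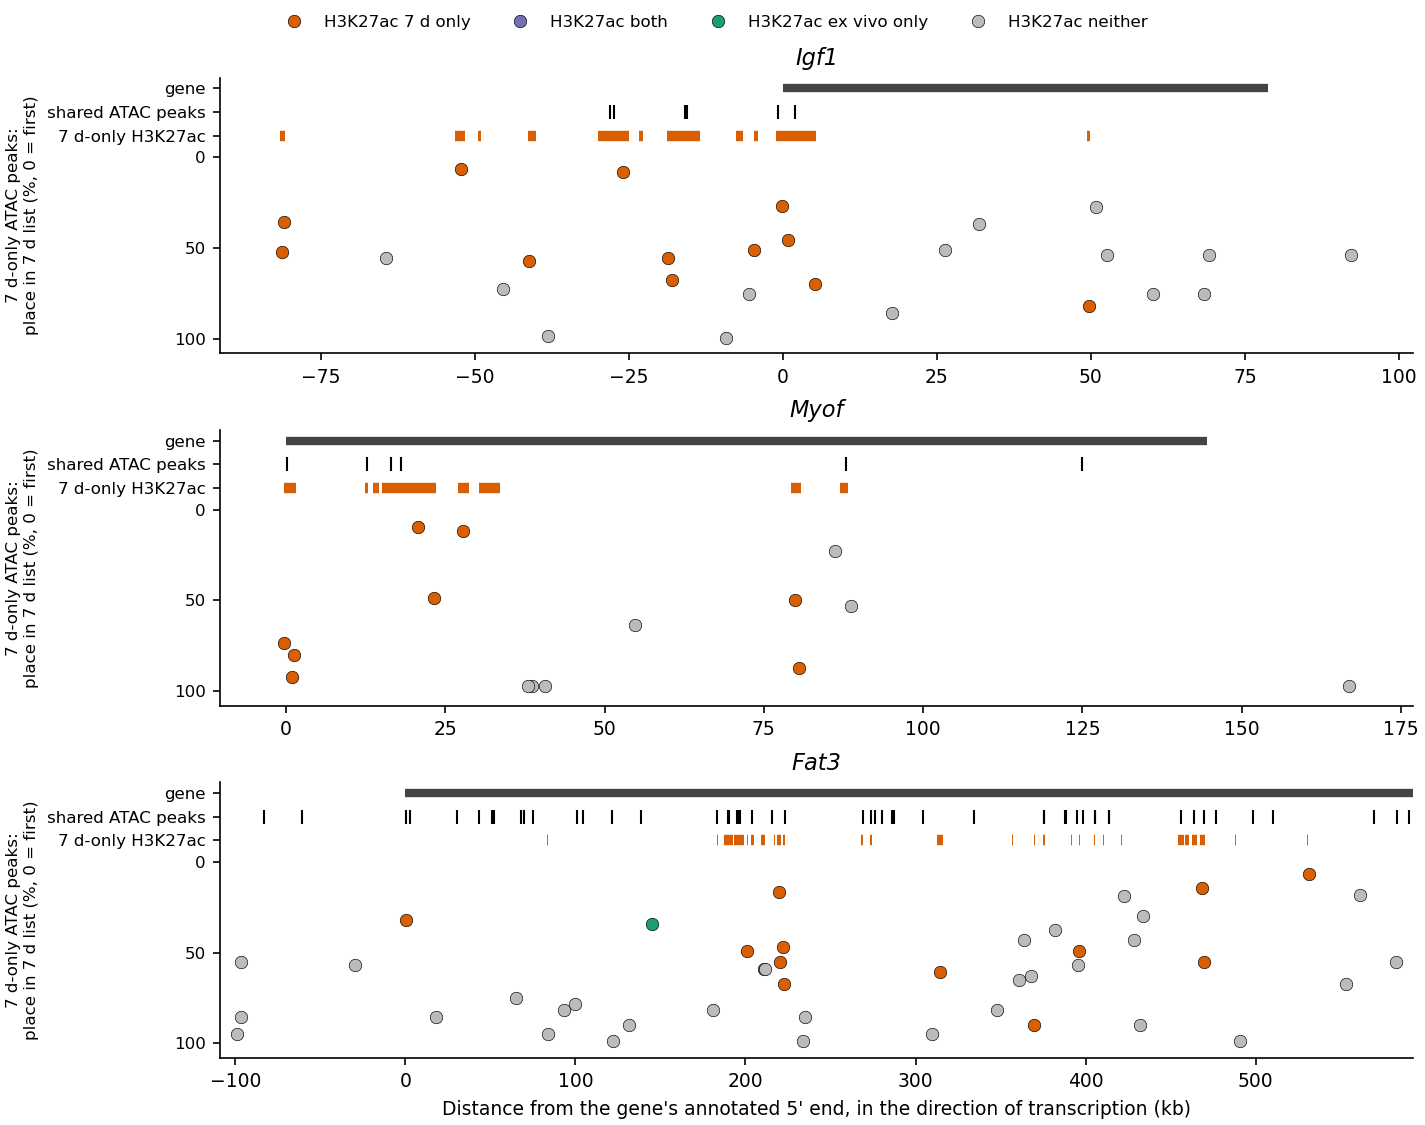
The 7 d-only peaks assigned to Igf1, Myof and Fat3 (points) by distance from the annotated 5′ end of the gene (kb, in the direction of transcription) and place in the 7 d ATAC list (%, 0 = first), coloured by H3K27ac; bars mark the gene body and H3K27ac regions found at 7 d only, ticks the shared ATAC peaks. Peaks acetylated at 7 d only number 12 at Igf1, 8 at Myof and 13 at Fat3.

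The 8 steepest rises among genes with a 7 d-only peak acetylated at 7 d included, besides Mmp12, Emp1 and Clec4d, 5 further genes. Gpnmb, a glycoprotein of macrophages that handle lipid and debris, had 3421, 1965, 2612, 2624 and 3771 CPM at 7 d, against 1.25, 3.38, 1.73, 0.358 and 0.445 CPM ex vivo (log2 fold change 10.96 ± 0.56, edgeR adjusted p = 1.24e-10). It had 6 7 d-only peaks, 3 of them acetylated at 7 d only and all 3 within 9.71 kb before its gene body. Atp6v0d2, a subunit of the vacuolar proton pump, had 82.7, 48.1, 61.1, 45.9 and 142 CPM at 7 d, while 3 of 5 ex vivo libraries had 0 and the highest 0.188 CPM. Mmp13, a collagenase, had 36.9 to 87.8 CPM at 7 d, against 0 to 0.121 CPM ex vivo. Mmp12 itself had 6 7 d-only peaks, 5 of them acetylated at 7 d only, the farthest 13.7 kb before the gene body. Lgals3, which codes for galectin-3, a lectin of phagocytes, had 1627 to 2209 CPM at 7 d, against 1.36 to 5.53 CPM ex vivo, and 2 peaks, both acetylated at 7 d only. Flrt2, a membrane protein that guides cell adhesion, had 25 7 d-only peaks, 2 of them acetylated at 7 d only, and 40.5 to 138 CPM at 7 d, against 0 to 0.444 CPM ex vivo.

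**Figure D5:**
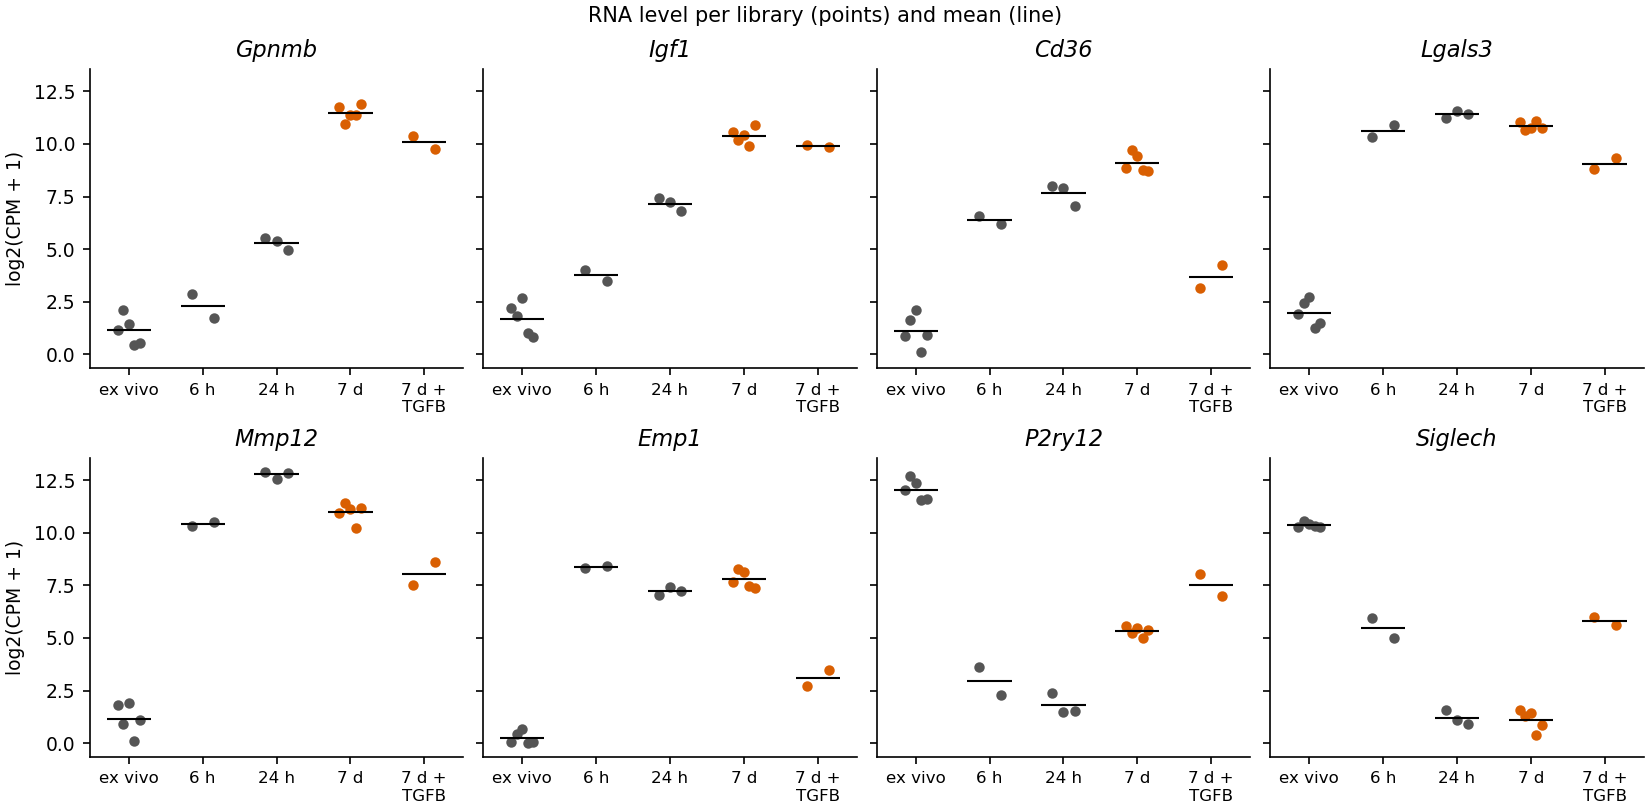
RNA level per library as log2(CPM + 1), with the mean as a line, for 8 genes with 7 d-only peaks, over ex vivo, 6 h, 24 h, 7 d and 7 d with TGFβ. The first 6 genes are near 0 ex vivo, P2ry12 and Siglech are high there, and Cd36 and Emp1 fall with TGFβ.

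Genes for lysosomes, phagocytosis and lipid handling, a list that also held Igf1, had 42 peaks acetylated at 7 d only, the highest sum in the longest list examined. Igf1 alone had 12 of the 42. Of 34 genes in that list, 27 had a 7 d-only peak (79.4%, against 56.0% of tested genes) and 13 had one acetylated at 7 d only (38.2%, against 12.96%). All 13 were higher at 7 d. Of the whole list 29 were higher and 2 lower (median log2 fold change 2.51), beside 34.8% and 35.7% of all genes tested. Cd36, a scavenger receptor for oxidised lipids, had 17 7 d-only peaks, 5 of them acetylated at 7 d only and all 5 within its body. Its RNA stood at 465, 835, 691, 439 and 424 CPM at 7 d, against 0.835, 2.13, 3.35, 0.0717 and 0.890 CPM ex vivo (log2 fold change 8.54 ± 0.57, edgeR adjusted p = 2.84e-09). Msr1, a scavenger receptor, had 16 peaks and 2 acetylated at 7 d only, with 551 ± 88.0 CPM at 7 d and 2.30 ± 1.30 CPM ex vivo. Mitf, a factor that drives lysosomal genes, had 21 peaks and 3 acetylated at 7 d only, with 207 ± 45.7 CPM at 7 d and 65.6 ± 11.6 CPM ex vivo. Axl, a receptor for dying cells, and Tfeb, the master factor of lysosome genes, each had 3 peaks and none of that kind, and neither was called (log2 fold changes 0.31 ± 0.49 and -0.08 ± 0.13).

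Matrix proteases and adhesion genes had a 7 d-only peak in 26 of 27 (96.3%, against 56.0% of all genes tested). A peak acetylated at 7 d only was near 10 (37.0%, against 12.96%), of which 8 were higher and 1 lower. Of that list as a whole 16 were higher and 7 lower (median log2 fold change 1.08), beside 34.8% and 35.7% of all genes tested. Cd44, the hyaluronan receptor, had 10 peaks with 3 of that kind and averaged 224 ± 35.8 CPM at 7 d and 3.97 ± 2.80 CPM ex vivo. Tns3, an adapter at adhesion sites, had 17 with 3 and averaged 979 ± 346 CPM at 7 d and 462 ± 68.1 CPM ex vivo. Itgb5, an integrin subunit high in microglia, had 12 peaks, of which 6 overlapped H3K27ac at 7 d but none at 7 d only, and fell to 471 ± 81.7 CPM at 7 d, against 1805 ± 258 CPM ex vivo. Itgb1, the common integrin subunit, had 10 and none of that kind, and was higher at 7 d (log2 fold change 1.29 ± 0.12). Mmp8 and Timp2, a collagenase and a protease inhibitor, were not called (log2 fold changes -0.25 ± 0.84 and -0.09 ± 0.15).

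Interferon-response genes had a 7 d-only peak in 12 of 21 (57.1%, against 56.0% of tested genes) and one acetylated at 7 d only in 5 (23.8%, against 12.96%), all 5 higher, while 17 of the 21 were higher and 0 lower. Their median log2 fold change was 3.73, and of all genes tested 34.8% were higher and 35.7% lower. Ifi204, a sensor of the interferon-inducible family, had 7 peaks with 4 of that kind and averaged 223 ± 51.2 CPM at 7 d and 5.93 ± 1.64 CPM ex vivo. Ddx58 and Mx1, a sensor and an effector of antiviral defence, had 2 peaks each, none of that kind, and were not called (log2 fold changes 0.81 ± 0.38 and 1.02 ± 0.66).

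In cholesterol synthesis and proliferation most genes were higher at 7 d, beside 34.8% higher and 35.7% lower of all genes tested. The share with a peak acetylated at 7 d only was near or below that of all tested genes (12.96%). Of 22 cholesterol genes 20 were higher and 0 lower, 8 had a 7 d-only peak (36.4%, against 56.0% of tested genes) and 2 one acetylated at 7 d only (9.09%). Those were Insig1, a sterol sensor, and Fdft1, squalene synthase, with log2 fold changes of 2.71 ± 0.33 and 2.38 ± 0.17. Msmo1, an enzyme of the pathway, had 1 peak without acetylation at 7 d only and a log2 fold change of 3.23 ± 0.30. Tm7sf2, another, was not called (log2 fold change -0.42 ± 0.22). Of 25 proliferation genes 22 were higher and 0 lower, 12 had a 7 d-only peak (48.0%) and 3 one acetylated at 7 d only (12.0%). Mki67, a marker of dividing cells, had 4 peaks with 1 of that kind and a log2 fold change of 2.88 ± 0.65. It had 35.97, 151, 48.1, 65.6 and 7.55 CPM at 7 d, against 2.46 to 16.7 CPM ex vivo, so that 7 d library 5 lay within the ex vivo range, and without 7 d library 2 the 7 d mean was 39.3 CPM, against 61.6 CPM with it. Rrm2, Ccne1 and Cenpf had none of that kind, and Tyms had 1; Cenpf and Tyms were not called.

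Genes in the list of homeostatic microglia genes were also near 7 d-only peaks, but of a different state. Of 24 genes 22 were lower and 0 higher (median log2 fold change -3.83), beside 35.7% lower and 34.8% higher of all genes tested. A 7 d-only peak was near 19 (79.2%, against 56.0% of tested genes), 78 peaks in all. Of the 78 peaks 4 were acetylated at 7 d only, 26 at both times and 20 ex vivo only. Over all 7 d-only peaks these states held 8.90%, 7.90% and 3.06% in the same order. By gene, 3 of the 24 (12.5%) had a peak acetylated at 7 d only, near the 12.96% of tested genes. P2ry12, the purinergic receptor that guides microglial processes, had 11 7 d-only peaks within its body, and all 11 overlapped H3K27ac ex vivo, 4 of them at 7 d as well. Its RNA was 46.4, 37.2, 43.5, 30.4 and 39.9 CPM at 7 d, against 4175, 6573, 5235, 2974 and 3106 CPM ex vivo (log2 fold change -6.80 ± 0.39, edgeR adjusted p = 2.8e-10). Siglech, a sialic acid-binding lectin of microglia, had 7 peaks without H3K27ac at 7 d and fell to 1.26 ± 0.680 CPM at 7 d, against 1332 ± 112 CPM ex vivo. Csf1r, the receptor for IL-34, had 6 peaks, 5 of them acetylated at both times, and fell to 1777 ± 116 CPM at 7 d, against 11892 ± 948 CPM ex vivo. Mef2c, a microglial transcription factor, had 18 peaks and Trem2, a lipid-sensing receptor, 5, and neither was called (log2 fold changes -0.05 ± 0.16 and 0.41 ± 0.18).

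The AP-1 and ATF factors, which bind the AP-1 core and related sites, were more often lower than higher. Of 19 such genes 3 were higher at 7 d and 9 lower (median log2 fold change -0.38), beside 34.8% and 35.7% of all genes tested. A 7 d-only peak was near 16 of them (84.2%, against 56.0% of tested genes). In 6 (31.6%, against 12.96%) one was acetylated at 7 d only, and 3 of those 6 genes were lower. Jun had 12 peaks, none acetylated at 7 d only, and 238, 189, 176, 288 and 338 CPM at 7 d, against 9133, 1067, 260, 4882 and 3777 CPM ex vivo. The 7 d values lay close together, while the ex vivo libraries spread widely and the lowest overlapped the 7 d range. Fos had 6 peaks with 2 of that kind and averaged 82.3 ± 32.2 CPM at 7 d and 1972 ± 2069 CPM ex vivo. Ex vivo library 3, at 23.2 CPM, was below every 7 d library, and without ex vivo library 1 the ex vivo mean of Fos was 1133 CPM. Hspa1b, a heat shock chaperone, spread in the same way, with 0.0427 to 0.884 CPM at 7 d and 27.7 to 985 CPM ex vivo. Bach2, a repressor at AP-1-like sites, had 18 peaks with 3 of that kind and fell to 10.6 ± 2.63 CPM at 7 d, against 99.0 ± 14.6 CPM ex vivo. Atf3 and Maf were not called (log2 fold changes -0.38 ± 0.80 and -0.09 ± 0.22).

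Among macrophage transcription factors 7 of 27 were higher and 15 lower, beside 34.8% and 35.7% of all genes tested. A peak acetylated at 7 d only was near 8 of the 27 (29.6%, against 12.96% of tested genes). Ikzf1 (Ikaros), Rreb1 and Runx2, with 14, 11 and 17 peaks and 1 of that kind each, were lower at 7 d (log2 fold changes -1.74 ± 0.12, -0.73 ± 0.17 and -1.41 ± 0.31). Cebpa, a partner of PU.1, had 4 with 2 of that kind and was not called (log2 fold change 0.10 ± 0.25). Of 25 inflammatory genes 8 were higher and 7 lower, and 6 (24%) had a peak of that kind. Nfkb1, an NF-κB subunit, had 12 peaks and none of that kind and was lower (log2 fold change -0.80 ± 0.11), Il1rn, the interleukin-1 antagonist, had 5 and was higher (4.14 ± 0.50), and Tnfaip3, which limits NF-κB, and Tlr2 were not called. In the list of osteoclast-like fusion genes 7 of 15 (46.7%, the highest share of the 10 gene lists) had a peak acetylated at 7 d only, 5 of them higher and 2 lower. The pair that fell was Src and Itgb3 (log2 fold changes -1.46 ± 0.15 and -1.73 ± 0.29). Cd109 was higher (5.99 ± 0.65), though its level at 7 d was 2.37 ± 0.542 CPM.

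Genes with the most 7 d-only peaks were very long. The 10 tested genes with the most were Fhit (56), Pde4d (54), Plxdc2 (49), Csmd3 (46), Fat3 (44), Nav3 (44), Zbtb20 (43), Oxr1 (41), Hdac9 (41) and Inpp4b (39), and Fhit spans 1612 kb. Of these 10, Oxr1 and Hdac9 were higher at 7 d, Fat3 was not called and the other 7 were lower. Over all genes tested 34.8% were higher and 35.7% lower, and over the 411 with 10 or more 7 d-only peaks 39.7% and 38.0%. Csmd3, a large membrane protein, fell to 1.80, 3.81, 6.32, 2.89 and 5.46 CPM at 7 d, against 101, 256, 159, 333 and 304 CPM ex vivo, with 46 peaks of which 2 overlapped H3K27ac at 7 d. Plxdc2 fell to 381, 488, 685, 297 and 521 CPM at 7 d, against 994, 1423, 1113, 1226 and 1212 CPM ex vivo. Among the 5 steepest falls with a 7 d-only peak nearby, Ttr and Enpp2, genes of the choroid plexus, ranged from 0.742 to 96.2 CPM and from 1.16 to 74.3 CPM ex vivo and were at 0 to 0.103 CPM at 7 d. Upk1b fell to 0 to 0.240 CPM at 7 d, against 89.7 to 192 CPM ex vivo.

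The other RNA groups were set beside the same genes. All culture comparisons share the ex vivo libraries, and the TGFβ comparison shares the 7 d libraries, so the values stand side by side only. Of the 1787 genes with a 7 d-only peak acetylated at 7 d only, 43.6% were higher and 30.1% lower at 6 h, beside 31.2% and 36.8% of all genes tested. At 24 h 41.6% were higher and 28.9% lower, beside 29.6% and 33.1%. With TGFβ at 7 d, against 7 d without it, 11.2% were higher and 16.3% lower, beside 9.57% and 6.52% of all genes, and of the 219 genes with 3 or more such peaks 11.4% were higher and 24.2% lower. Chromatin was not profiled with TGFβ or at the earlier times in these data.

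Individual genes took different courses. Gpnmb averaged 1.43 CPM ex vivo, 4.36 CPM at 6 h, 38.6 CPM at 24 h and 2879 CPM at 7 d, and Igf1 2.67, 12.9, 145 and 1375 CPM at the same times. Mmp12 was already at 1365 CPM at 6 h and peaked at 7012 CPM at 24 h, against 2074 CPM at 7 d. Emp1 was at 333 CPM at 6 h and 149 CPM at 24 h. With TGFβ, Emp1 had 5.48 and 9.98 CPM, against 166 to 313 CPM at 7 d without it (log2 fold change -4.87, edgeR adjusted p = 3.54e-06). Cd36 had 7.90 and 17.7 CPM with TGFβ, against 424 to 835 CPM without it (log2 fold change -5.47, edgeR adjusted p = 6.96e-05). Mmp12 had 182 and 384 CPM with TGFβ, against 1191 to 2730 CPM without it (log2 fold change -2.87). For these 3 genes the groups did not overlap. Igf1 had 986 and 933 CPM with TGFβ, against 962 to 1900 CPM without it, and was not called (log2 fold change -0.52, edgeR adjusted p = 0.498). Siglech and Pde4d moved the other way, to 55.3 CPM and 27.2 CPM on average with TGFβ, against 1.26 and 1.00 CPM without it.

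The 17 microglial RNA libraries held 13.3 to 28.8 M counts. Of the markers of other cells, summed over each list, those of astrocytes stood at 8.97 to 12.9 CPM at 7 d and 173 to 405 CPM ex vivo, and those of neutrophils at 0.361 to 2.38 CPM at 7 d and 5.10 to 239 CPM ex vivo. Monocyte markers stood at 4.28 to 8.15 CPM at 7 d and 6.67 to 80.4 CPM ex vivo, and markers of border macrophages at 263 to 538 CPM at 7 d and 15.4 to 130 CPM ex vivo. In such bulk samples fewer cells of a type and less RNA per cell cannot be told apart. Markers of neurons, of oligodendrocytes and of mural cells and fibroblasts summed to 1.24 to 2.33, 47.9 to 89.5 and 0.423 to 1.18 CPM at 7 d and to 2.53 to 16.4, 88.8 to 225 and 1.87 to 8.88 CPM ex vivo. Endothelial markers summed to 56.1 to 84.1 CPM at 7 d, mostly Vwf, and 39.2 to 50.4 CPM ex vivo, mostly Pecam1, which macrophages can express too. At 7 d, 2 of 9 astrocyte, 4 of 10 neuron and 2 of 8 neutrophil markers were at 0 in every library. Siglec1 made up 46.5% of the border macrophage sum at 7 d. The part of these cells in the RNA differences and in the 7 d-only peaks was not tested.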

How the data were processed

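Peak intervals were deposited as 1 HOMER list per assay and time, called on 2 pooled libraries with fold and false discovery limits, per the file headers; they hold no score, and their places in the list are used as given (mm10). The authors deposited raw gene counts and TPM values per RNA library; R 3.3.1, limma, bedtools, STAR, HOMER and Bowtie2 are listed, with no role, in the submitters' processing notes.

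Peaks were classed by an overlap of at least 1 bp (checked with bedtools 2.31.1) and given to the nearest RefSeq gene body within 100 kb. Counts were fitted with edgeR 4.0.16 (R 4.3.3; TMM, filterByExpr, robust quasi-likelihood) as 1 group-means model over 17 libraries, with Benjamini-Hochberg adjustment over 13840 genes; the fit was tested on simulated counts. CPM values are TMM-scaled. RNA libraries held 24.2 to 28.0 M counts at 7 d and 13.3 to 21.9 M ex vivo. Promoter windows are from RefSeq GRCm38.p6, which gave 32851 windows.

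Named genes, all with a 7 d-only peak, were the 10 with the most such peaks, the 8 largest rises (with a peak overlapping 7 d H3K27ac) and 5 largest falls at 20 CPM or more without overlap of groups, and up to 4 genes a list with the most peaks plus up to 2 not called. Not every gene the rule names is reported here. The peaks and gene lists were chosen with earlier results of these data known. Alternatives were other normalizations, tests, filters, overlaps, distances and left-out libraries. The 4 lysate RNA libraries were not used here. Replicate numbers of the 7 d and ex vivo libraries were not taken as pairs.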

Additional observations from a re-analysis of the deposited data

Results flagged for a closer look

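Of 160 combinations of a named gene with the 7 d or ex vivo group, 4 had a library far from the other 4, where chance flags about 1 in 20 groups. Cd44 was lower in 7 d library 3, at 161 CPM, than in the other 7 d libraries, which had 230 to 249 CPM. Ex vivo library 2 stood above the other ex vivo libraries in 3 genes. Hdac9 had 44.5 CPM there and 29.9 CPM in the nearest other library. Inpp4b had 212 CPM there and 129 CPM in the nearest other. Atp6v0d2 had 0.188 CPM there and 0.0403 CPM in the nearest other. None of these values closed the gap between the 7 d and ex vivo groups of its gene.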

How the results depend on the processing

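The share of 7 d-only peaks that overlapped H3K27ac at 7 d, 16.8%, was 15.3% where H3K27ac had to cover most of the peak (50% or more), 11.6% where peaks had to lie over 500 bp from ex vivo peaks, and 18.7% where only an overlap of 50% or more kept a peak out, an alternative chosen after seeing the data. Counting only peaks with H3K27ac at 7 d, 1513 of 3452 genes nearby (43.8%) were higher and 1120 (32.4%) lower. For all 7 d-only peaks these were 2895 (37.5%) and 2662 (34.5%) of 7715 genes, beside 34.8% and 35.7% of all genes. Leaving out 1 library at a time gave 2779 to 2956 genes higher and 2544 to 2663 lower. Over all genes it gave 33.2% to 35.0% higher and 34.1% to 35.4% lower. For genes with a peak acetylated at 7 d only it gave 906 to 943 higher and 420 to 440 lower. The 7 d libraries 2 and 3 resembled each other (r = 0.993 across genes) more than the others (0.958 to 0.979). Without both, 928 of 1772 acetylated-peak genes (52.4%) were higher and 419 (23.6%) lower, beside 32.2% and 34.8% of all genes. Limma on TPM shifted the median of all genes to -0.15 and gave 801 higher and 515 lower, beside 28.2% and 41.4% of all genes. With no filter on low counts the median of all genes was -0.20. With a replicate block, fitted to the 7 d and ex vivo libraries only, 12441 genes with a position were tested, against 13786 in the main fit. Of those with a 7 d-only peak 2629 were higher and 2337 lower, beside 34.7% and 33.6% of all genes in that fit. Same-numbered libraries did not deviate together (correlations from -0.033 to 0.202), so the numbers were not taken as a pairing, and 2 of 5 matched best with their own number. Of 1280 refitted values of named genes 1258 kept direction and call, 20 passed the threshold newly (Trem2, Tm7sf2, Fat3, Ddx58, Cenpf, Dock10, Mx1, Tfeb, Timp2, Runx1 and Lyst) and 2, Oxr1 and Runx2 with limma on TPM, no longer did, where the cause was not tested. An alternative chosen after seeing the data kept only genes with an ex vivo mean of at least 1 CPM. Of 1536 such genes with a peak acetylated at 7 d only, 773 (50.3%) were higher and 410 (26.7%) lower. At that level 35.4% of all genes were higher and 37.6% lower. With 3 or more peaks acetylated at 7 d only, 60.8% of 189 genes were higher and 19.6% lower. Pooled peak lists allow no replicate error for any peak share.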

Other observations

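On X and the autosomes other than chromosome 18, the 7 d-only peak highest in the 7 d list was chr2:98666517-98666717. It overlapped none of the 3 histone mark lists and had no gene within 100 kb. Regions of artefact signal were not filtered out here, and whether this peak is one was not tested. Among the 30 highest, Anxa5, which codes for an annexin that binds phosphatidylserine, was the only gene with more than 1 peak, and its log2 fold change was 5.68 (7 d over ex vivo). Promoter windows at ex vivo-only peaks had 348 tested genes. Of those, 25.3% were higher at 7 d and 48.9% lower, beside 34.8% and 35.7% of all genes tested.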
